A study of Mus musculus with 15 samples.

Results

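The epithelium of the choroid plexus was represented by 818 nuclei among 134019 barcodes of single-nucleus RNA-seq from 15 adult female C57BL6/J mice. A nucleus was taken as a member where its barcode had at least 500 genes, at least 3 unique molecular identifiers (UMIs, which count captured RNA molecules) of Htr2c, at least 10 UMIs of Ttr, at most 1 UMI of Gad1 and Gad2 together and at most 1 of Slc17a7. The first pair of genes marks the epithelium, and the last 3 mark GABAergic and glutamatergic neurons. Members were thus chosen by measured UMIs of these genes, so the levels of Ttr and Htr2c describe the choice and are given as values only. Both genes stayed in the fit across all genes but are counted in none of its list results below.

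All mice were wild type, and the tissue came from micropunches aimed at the dorsal hippocampal formation (dHF), which lies beside the ventricles that hold the choroid plexus. The NP group held 6 virgin nulliparous females. The control RE group (reproductive experience) held 4 age-matched females that had mated, given birth, lactated and raised their pups to weaning. The 5 stress RE females had the same experience, with daily separation from the litter and limited nesting material in the later part of lactation. The labels gave 3 batch numbers, of which batch 1 held NP and stress RE mice but no control RE mouse, although the methods describe every group in each batch. A mouse was the unit of replication throughout.

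The choroid plexus is a folded epithelium around a vascular core that hangs into the ventricles and secretes most of the cerebrospinal fluid. Its cells pump sodium, chloride and bicarbonate, and water follows through channels and cotransporters. Tight junctions between the cells form the barrier between blood and cerebrospinal fluid, and carriers in the cells move folate, vitamin C and thyroid hormones across it. The cells also secrete proteins such as transthyretin (Ttr), the thyroid hormone and retinol carrier of this fluid, and they respond to serotonin and prolactin through the receptors encoded by Htr2c and Prlr. In the study the dHF itself was of interest, and clusters with choroid plexus markers were removed there as contaminants.

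The median member had 6098 UMIs and 2990 genes, with 43 UMIs of Ttr and 80.5 of Htr2c. The lowest member had 817 UMIs and the highest 44532. Most of the markers that the rule did not use were present in a typical member. Of 8 such markers (Otx2, Kl, Folr1, Kcnj13, Slc4a5, Clic6, Sostdc1 and Prlr), the median member had a UMI of 6, and 778 members, or 95.1%, had a UMI of at least 4. A rule that asked for 4 of these 8 markers in place of Ttr and Htr2c, with the same limits on neuronal genes, found 819 nuclei. Of these, 778 were members.

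The 17 members with 3 to 5 UMIs of Htr2c had a median of 3 of the 8 markers, and 47.1% had at least 4. Just outside, 110 nuclei had at least 10 UMIs of Ttr but at most 2 of Htr2c, and 6.4% of them had at least 4 of the markers. On the Ttr side the limit fell within the epithelium, since 93.1% of the 29 members with 10 to 12 UMIs and 78.6% of the 14 nuclei with 7 to 9 UMIs had at least 4 markers. A further 68 barcodes passed both epithelial limits and failed only on neuronal genes, with a median of 14580 UMIs, and were not members.

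UMIs of epithelial genes also occurred in other nuclei. Among 14593 nuclei chosen as oligodendrocytes (by their UMIs of myelin genes, with the same neuronal limits, and not members), 15.5% had a UMI of Ttr and 12.0% one of Htr2c. These nuclei had a median of 3371 UMIs. After each nucleus was thinned to 1000 UMIs, which left out 1 member and 3 oligodendrocyte nuclei, Ttr was seen in 98.7% of members and 5.61% of oligodendrocyte nuclei. Otx2 was seen in 26.2% against 0.103%, Kl in 39.8% against 0.254% and Folr1 in 18.2% against 0.0617%. Prlr was seen in 52.9% against 0.432%. Before thinning, Otx2, the homeobox gene that the choroid plexus needs to form, had a UMI in 79.8% of members, and Kl, which encodes the anti-ageing membrane protein klotho, in 88.6%.

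The level of Ttr in oligodendrocyte nuclei ranged from 4.33 to 182 counts scaled to the summed UMIs (CPM, the usual unit per 1e6 UMIs) over the mice, with the lowest in stress RE 90 (0.33% members) and the highest in stress RE 75 (0.95%). Htr2c in the same nuclei ran from 14.2 CPM in control RE 72 to 103 CPM in NP 63, the mouse with the fewest members. It was also at 103 CPM in NP 73, with 70 members. Whether free RNA, doublets or low expression gave these UMIs was not tested.

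Markers of oligodendrocytes and their precursors, astrocytes, and excitatory and GABAergic neurons summed to less in members than in all other nuclei, while those of ependymal, microglial, endothelial and vascular cells and of habenular and thalamic neurons summed to more. Levels were computed as CPM of the summed member UMIs of each mouse, over the 13 mice with at least 10 members, and are given as the mean over mice. The myelin genes and other oligodendrocyte markers summed to 373 CPM in members against 15397 CPM in the oligodendrocyte nuclei, and ranged over mice from 210 to 617 CPM (NP), 116 to 502 CPM (control RE) and 171 to 892 CPM (stress RE). Astrocyte markers summed to 244 CPM and excitatory neuron markers to 181 CPM, below the 668 and 1277 CPM of all other nuclei. The endothelial list stood at 273 CPM, of which 259 CPM came from Slco1a4, an organic anion transporter, while Cldn5, the main claudin of brain endothelium, was at 0.515 CPM. The microglial list stood at 193 CPM against 98.3 CPM in all other nuclei, most of it Cx3cr1, and the habenular and thalamic list at 667 CPM against 456 CPM. The limits of the rule on Gad1, Gad2 and Slc17a7 lower the neuronal sums by themselves, since all other nuclei had no such limit. None of the markers on these lists was without a UMI. As an alternative, members with 3 or 10 UMIs of another class were left out, which counted oligodendrocyte, astrocyte, microglial, endothelial and excitatory neuron genes and no others. The microglial genes counted included Cx3cr1, most of the microglial sum in members. The limit of 3 UMIs, with a limit of 3 times the median depth of the mouse, removed 309 members. They included 8 of the 16 members of control RE 88, which then fell below the 10 needed. The removed members had a median of 7309 UMIs, against 6098 for all members, and 94.8% had at least 4 of the 8 epithelial markers. Whether they were doublets or mixed with other RNA was not tested, so shifts under this limit cannot be put down to such nuclei.

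Unlike the neighbouring ependyma, the epithelium had only a part of the motile cilia genes. Ependymal cells line the ventricles with tufts of beating cilia. A total of 187 nuclei with at least 3 of 6 ependymal markers and 6 UMIs over them served for comparison, pooled over mice because most mice had few. These markers were Tmem212, Foxj1, Dnah12, Spag17, Cfap54 and Ccdc153, so their ependymal levels describe the choice of those nuclei. Gmnc and Dnah6 were not among them. Gmnc, a regulator that starts the multiciliated programme, was at 1817 ± 381 CPM (SD, n = 13) in members and 59.0 CPM in ependymal nuclei. Foxj1, the transcription factor of motile cilia, was at 42.1 ± 14.0 CPM against 86.7 CPM. Dnah6, a dynein heavy chain, was at 349 ± 55.5 CPM against 834 CPM, and Cfap54, of the central pair apparatus, at 216 ± 27.7 CPM against 1306 CPM. Other ependymal markers were close to absent in members, with Dnah12 at 4.46 CPM against 1716 CPM, Spag17 at 3.22 CPM against 764 CPM and Tmem212 at 2.69 CPM against 1120 CPM. The genes Mcidas and Myb, which act in the same programme, had 0 and 2 UMIs over all members, where 3 UMIs would be 0.520 CPM. Their ependymal levels are not given, so no difference from the ependyma is shown for them. All values of this paragraph are descriptions of chosen sets of nuclei and carry no test.

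**Figure D1:**
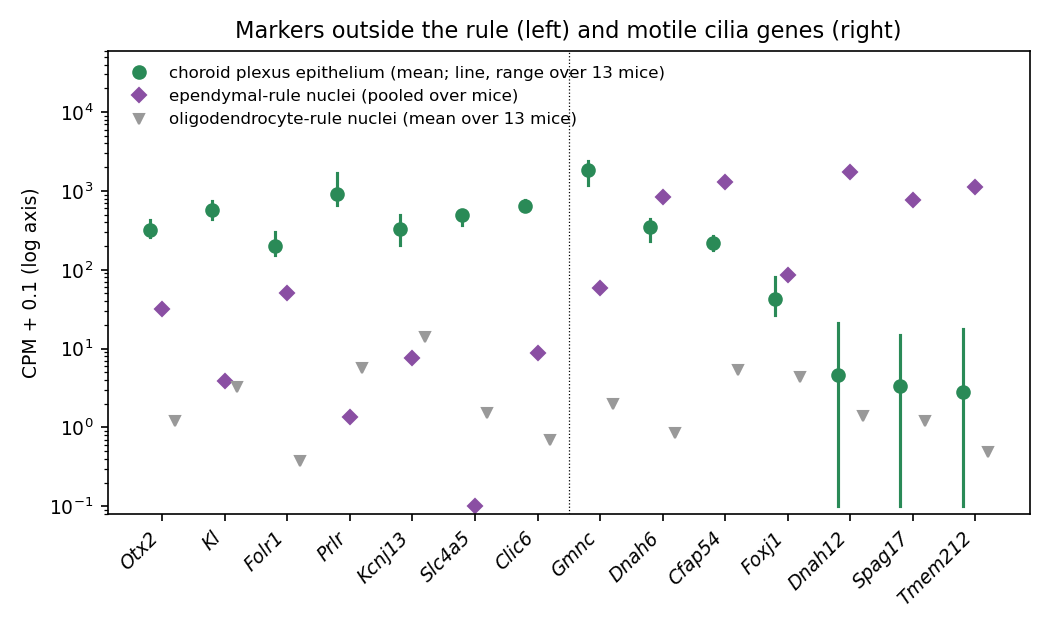
Levels (CPM plus 0.1, log axis) of 7 markers outside the rule, left of the dotted line, and 7 motile cilia genes, right of it. Green points are the mean of choroid plexus epithelial nuclei over 13 mice with a line from the lowest to the highest mouse, purple diamonds are ependymal-rule nuclei pooled over mice and grey triangles are oligodendrocyte-rule nuclei. The 7 markers lie above both other sets in members. Kl is at 570.4 CPM against 3.77 and 3.12 CPM, and Folr1 at 197 CPM against 50.2 CPM in ependymal nuclei. Dnah12, Spag17 and Tmem212 are high in ependymal nuclei only. They, with Foxj1 and Cfap54, were among the genes that chose the ependymal nuclei.

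The 20 genes with the most UMIs in members were Malat1, Trpm3, Htr2c, Ttr, Enpp2, Frmpd4, Gm42418, Magi2, Zbtb20, Cadm2, Stk39, Rora, Slc4a10, Otx2os1, Agbl4, Esrrg, Etl4, Wdr17, Kcnip4 and Msi2. Most are long, as is usual in nuclei, where introns are counted. Trpm3, a calcium-permeable channel whose gene spans 856 kb on chromosome 19, led the protein-coding genes at 26576 ± 3116 CPM (SD, n = 13), against 1433 CPM in all other nuclei. Htr2c followed at 13749 ± 3153 CPM against 102 CPM, and Ttr at 12104 ± 8627 CPM against 33.5 CPM. Enpp2, which encodes autotaxin, a secreted enzyme that makes lysophosphatidic acid, was at 7351 ± 913 CPM against 172 CPM. Per kilobase of gene span in the GENCODE annotation of GRCm38 the order turned, with Ttr (span 9.04 kb) at 1339 CPM per kb, Enpp2 at 64.5 and Htr2c at 58.6 CPM per kb, and Trpm3 below these. Malat1, Gm42418, Magi2, Zbtb20, Cadm2 and Kcnip4 were higher in the oligodendrocyte or ependymal nuclei or in all other nuclei than in members.

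Ranked instead by the ratio to all other nuclei among the 4104 genes of at least 50 CPM in members, the leading 20 were Olfr1507, Gm29538, Cldn2, Tmem72, 4930402D18Rik, Gm32468, Drc7, Gm50011, Folr1, F5, Lmx1a, Slc4a5, Slc16a8, Gmnc, Kcne2, 2900040C04Rik, Ttr, Platr22, Slco1a5 and Col4a3. Their ratios ran from 1053 to 333. The first of them, Olfr1507, encodes an odorant receptor on chromosome 14 (GRCm38, 52488791 to 52495749) and no other annotated gene overlaps it. It stood at 74.0 ± 31.3 CPM in members, 0.0703 CPM in all other nuclei and 16.3 CPM in ependymal nuclei. Cldn2, the claudin that makes cation- and water-permeable tight junctions, was at 111 ± 20.3 CPM against 0.145 CPM. Lmx1a, a LIM homeobox factor of the roof plate from which the choroid plexus grows, was at 445 ± 94.7 CPM against 0.862 CPM. Tmem72, a membrane protein, was at 728 ± 87.7 CPM against 1.07 CPM. F5, coagulation factor V, was at 219 ± 44.7 CPM and Drc7, a subunit of the dynein regulatory complex of cilia, at 408 ± 74.1 CPM.

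Genes of position along the neural tube were mostly low. None of the Hox genes on the list of 10 hindbrain genes (Hoxa2, Hoxa3, Hoxa4, Hoxb2, Hoxb3, Hoxb4, Hoxc4 and Hoxd3) nor En2 had a UMI in any member, and Gbx2 had 1 UMI among 5767357 UMIs of members. Of 9 forebrain genes 3 were high enough to be tested between groups, and the other 6 were not. Of these 3, Zic4 was at 74.5 ± 33.4 CPM, Zic1 at 57.9 ± 21.0 CPM and Six3 at 26.9 ± 9.33 CPM, against 11.7, 26.6 and 1.33 CPM in all other nuclei.

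Genes of fluid secretion were led by Stk39 and Slc4a10. Stk39 encodes the kinase SPAK that regulates cation and chloride cotransporters, and was at 3649 ± 749.9 CPM in members against 216 CPM in all other nuclei. Slc4a10, a basolateral sodium bicarbonate carrier, was at 2903 ± 529.5 CPM against 341 CPM, and Slc4a5, an apical bicarbonate cotransporter, at 489 ± 64.7 CPM against 0.949 CPM. Clic6, a chloride channel protein, was at 650.4 ± 60.5 CPM against 1.96 CPM. Slc12a2, the cotransporter NKCC1 of the apical membrane, was at 623 ± 109 CPM against 115 CPM, and at 669.6 CPM in the oligodendrocyte nuclei. Kcnj13, a potassium channel, was at 325 ± 89.8 CPM and Trpv4, an osmosensitive channel, at 272 ± 60.6 CPM, against 10.0 and 1.42 CPM. Aqp1, the water channel of the apical membrane, was low in nuclear RNA at 24.4 ± 10.0 CPM, and at 0.233 CPM in all other nuclei. Of the junction genes, the highest were Pard3, Patj and Cdh2 at 405, 202 and 173 CPM, against 290.3, 63.4 and 367 CPM in all other nuclei.

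Slc23a2, a vitamin C transporter, was at 693 ± 111 CPM against 121 CPM in all other nuclei, and Slc39a12, a zinc transporter, at 458 ± 116 CPM against 24.9 CPM. Slco1c1, which carries thyroxine, was at 457 ± 75.9 CPM and the folate receptor gene Folr1 at 197 ± 39.7 CPM. Among hormone and monoamine receptors Htr2c was followed by Prlr at 922 ± 296 CPM (12.7 CPM elsewhere) and Igf1r, the receptor of insulin-like growth factor 1, at 617 ± 92.3 CPM (299 CPM elsewhere). Lepr, the leptin receptor, was at 150.4 ± 37.2 CPM against 3.38 CPM, and Crhr2, a receptor of urocortins, at 85.8 ± 24.3 CPM against 1.23 CPM. Receptors of oestrogen and oxytocin were low, with Esr1 at 6.35 CPM and no UMI of Oxtr. The dopamine receptor genes Drd1 and Drd2 had 9 and 17 UMIs over all members (1.28 and 2.04 CPM), against 5.25 and 10.7 CPM in all other nuclei. Bmp6, a bone morphogenetic protein, followed Ttr, Enpp2 and Kl among secreted factors, at 546 ± 111 CPM against 21.7 CPM. Maob, a monoamine oxidase, was at 208 ± 101 CPM against 7.47 CPM. Of clock genes Rora led at 3341 ± 569 CPM, followed by Nr1d2 at 163 and Tef at 153 CPM. Of glucocorticoid-responsive genes Sgk1, a kinase that controls sodium transport, led at 457 ± 65.6 CPM, and Klf9 and Per1 followed at 109 and 37.7 CPM. The immune list was led by Nfkb1, Ifi27 and Vcam1 at 166, 108 and 96.6 CPM, and the immediate early and heat shock list by Hsph1 at 48.1 CPM.

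Promoters of marker genes were read for the core of the OTX2 binding motif, TAATCC, on both strands, in windows from 250 bases before to 50 bases after the start site (RefSeq, GRCm38.p6). Of 30 genes listed as epithelial identity genes, 24 had a window, and Abca4, Ace, Otx2 and Rbm47 held the motif. That is 16.7% of these genes, where 8.14% of all 27025 genes with a window had it. Some genes have several windows, and per window it was 4 of 36 (11.1%) against 7.06% of all 32851 windows. The Otx2 window with the motif (chr14:48665060-48665359, minus strand, 1 of 4 windows of this gene) and that of Kl (chr5:150952357-150952656, plus strand) are shown as an example with and an example without it. Capitals mark the motif, here on the strand opposite to the gene.
Otx2: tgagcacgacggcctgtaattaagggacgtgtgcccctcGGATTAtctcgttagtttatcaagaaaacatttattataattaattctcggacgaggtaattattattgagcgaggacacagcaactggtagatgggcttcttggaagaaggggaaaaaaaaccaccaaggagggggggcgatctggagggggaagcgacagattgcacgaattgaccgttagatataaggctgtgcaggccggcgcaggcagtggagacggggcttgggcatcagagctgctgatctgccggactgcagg
Kl: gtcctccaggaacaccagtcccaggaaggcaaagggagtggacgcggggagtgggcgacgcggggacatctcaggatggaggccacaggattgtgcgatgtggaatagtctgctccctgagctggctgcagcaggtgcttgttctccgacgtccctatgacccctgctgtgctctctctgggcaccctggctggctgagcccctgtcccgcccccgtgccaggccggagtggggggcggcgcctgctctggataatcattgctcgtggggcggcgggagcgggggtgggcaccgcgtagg

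The number of nuclei varied greatly between mice. Among barcodes with at least 500 genes, members made up 0.80% in NP 27, 0.51% in NP 31, 1.54% in NP 35, 0.31% in NP 37, 0.047% in NP 63 and 0.90% in NP 73. The control RE mice had 0.88% (control RE 66), 0.43% (72), 0.37% (87) and 0.15% (88). The stress RE mice had 0.77% (stress RE 43), 0.14% (70), 0.95% (75), 0.97% (77) and 0.33% (90). In nuclei this was between 4 in NP 63 (95% Wilson interval 0.0181 to 0.120%) and 139 in NP 35 (1.30 to 1.81%). Intervals cover counting error only. The ranges of the 3 groups overlapped, and the lowest and the highest mouse were both NP.

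**Figure D2:**
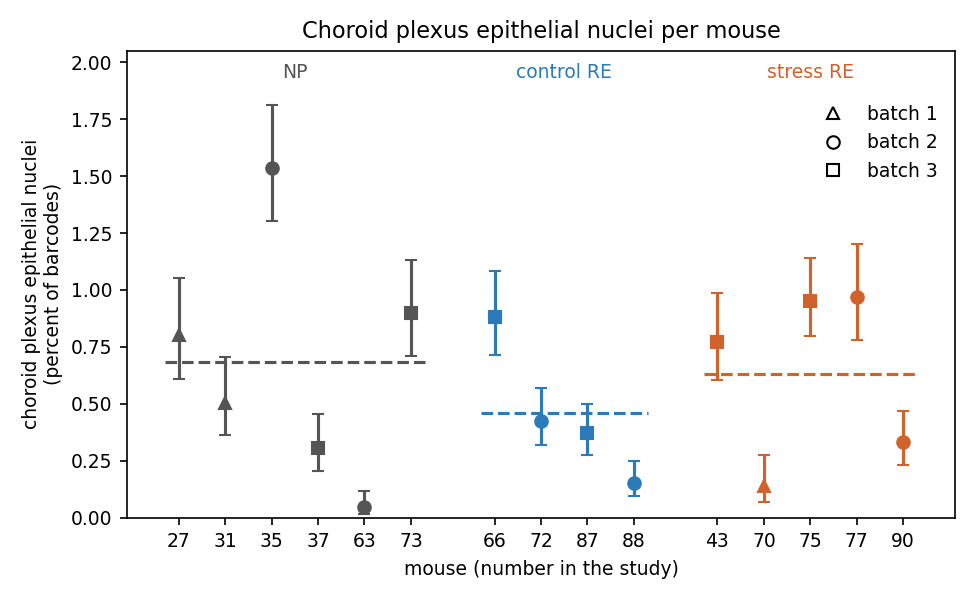
Percent of barcodes with at least 500 genes that were choroid plexus epithelial nuclei, for each mouse by group, with 95% Wilson intervals. Marker shapes give the batch and dashed lines the group mean (NP 0.683%, control RE 0.458%, stress RE 0.633%). The lowest mouse had 0.047% and the highest 1.54%, both NP.

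No difference in share between groups was larger than the spread between mice. Shares were 0.683 ± 0.523% (SD, n = 6) for NP, then 0.458 ± 0.306% (n = 4) for control RE, and 0.633 ± 0.377% (n = 5) for stress RE. Control RE lay below NP by a difference of -0.225 percentage points (exact permutation test, two-sided, p = 0.495), and within batches it was -0.503 in batch 2 and 0.0244 in batch 3. That of stress RE minus control RE was 0.175 percentage points (exact permutation p = 0.524), with 0.360 and 0.236 in the same batches. That of stress RE minus NP was -0.0498 percentage points (exact permutation p = 0.861), with -0.142 and 0.260. Adjusted over 9 tests of shares, depth and mitochondrial UMIs, every p was 0.914, and the smallest p these tests could give was between 0.00433 and 0.0286. The median depth per nucleus was 6926 ± 1544 UMIs (SD over mice) for the 5 NP mice used, 6148 ± 1441 for 4 control RE mice and 6313 ± 1523 for 4 stress RE mice.

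Ttr varied between mice. It took 2.98% of member UMIs in NP 27, 1.85% in NP 31, 0.46% in NP 35, 1.09% in NP 37 and 0.63% in NP 73. In control RE it took 0.98% (66), 0.82% (72), 0.35% (87) and 1.06% (88), and in stress RE 1.06% (43), 2.92% (75), 1.09% (77) and 0.46% (90). NP 27 and stress RE 75 stood far above the others, and so did stress RE 70, with 2.85% over only 8 nuclei. Each group held mice with low values. Htr2c, by contrast, ran from 7100 CPM in NP 31 to 18084 CPM in stress RE 90.

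UMIs of mitochondrially encoded genes, which reach a nuclear preparation with cytoplasm, were high in these mice too. They made up 0.484% of member UMIs in NP 27, 0.609% in stress RE 75 and 0.670% in stress RE 70, and 0.0883 to 0.286% in the others. Since Ttr chose the members, the relation is described here with no test, and it was noticed after the values had been seen.

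**Figure D3:**
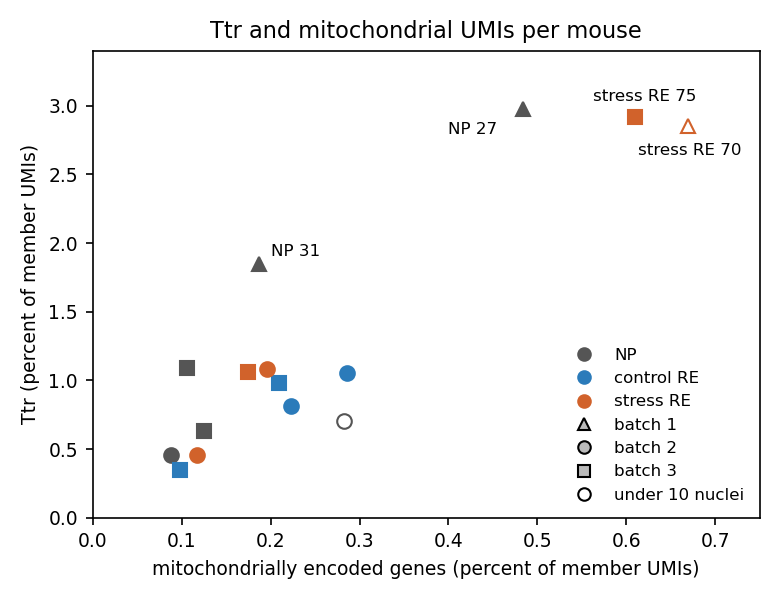
Share of member UMIs from Ttr against that from mitochondrially encoded genes, both in percent, 1 point a mouse, coloured by group and shaped by batch, with open points for mice with under 10 nuclei. NP 27 (0.484%, 2.98%), stress RE 75 (0.609%, 2.92%) and stress RE 70 lie apart from the other mice at the upper right.

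Across nuclei the values below are descriptions too, because a member needed 10 UMIs of Ttr whatever its depth, which by itself gives shallow members a high share of Ttr. Over the 757 members with fewer than 10 UMIs of each of these 5 classes of other cells and no more than 3 times the median depth of their mouse, the log-scaled level of Ttr correlated with that of the mitochondrial genes at r = 0.72, and at 0.66 after the mean of each mouse was removed. Other short, abundant messages went with it, among them Cst3, which encodes cystatin C (r = 0.63), Apoe, apolipoprotein E (0.59), Ecrg4, a secreted peptide precursor (0.59) and Fth1, the ferritin heavy chain (0.58). The long intron-rich genes ran against it, with -0.35 for Trpm3, -0.34 for Otx2os1 and -0.31 for Htr2c. All of these points share libraries and depth, and the logarithm of UMIs per nucleus itself gave -0.39. Mitochondrial genes took 0.431% of UMIs in the 205 members with the fewest UMIs (817 to 4474) and 0.171% in the 205 deepest (8540 to 44532 UMIs).

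To ask whether reproductive experience or stress during lactation left a mark in the epithelium, UMIs were summed per mouse over members and 7245 genes were tested with edgeR's quasi-likelihood test in the 13 mice with at least 10 members (5 NP, 4 control RE, 4 stress RE). Batch 1 held only NP mice in this fit (NP 27 and NP 31), because stress RE 70 had too few members. At a Benjamini-Hochberg adjusted p under 0.05, 0 genes differed between control RE and NP, 0 between stress RE and control RE and 0 between stress RE and NP, or 0% of the genes tested in each. Without adjustment, p fell under 0.05 for 237, 205 and 158 genes, or 3.27%, 2.83% and 2.18%. DESeq2 also called 0 genes in each comparison, with 294, 225 and 163 genes under 0.05 before adjustment. Its smallest adjusted p was 0.107, for control RE minus NP.

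Genes that define the epithelium gave no call. The mean of Otx2 was 320 CPM for NP, 299 CPM for control RE and 347 CPM for stress RE, and the log2 fold change of control RE minus NP was -0.13 (95% interval -0.48 to 0.23), and 0.02 without NP 27, where Otx2 was highest. Kl was at 611, 554 and 537 CPM, with -0.12 (-0.43 to 0.18) for the same comparison and -0.05 (-0.37 to 0.26) for stress RE minus control RE. These 2 values were -0.35 and 0.15 with equal nuclei per mouse, and -0.05 and -0.12 without control RE 72. Enpp2 was at 7718, 6701 and 7542 CPM. Of the identity list, 28 genes were tested beside Ttr and Htr2c, 0 passed, and none had an unadjusted p under 0.05 in any comparison of the fit with all members. Their median log2 fold change was -0.13, 0.04 and -0.03 in the 3 comparisons, where that of all genes was -0.01, 0.01 and 0.00.

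Prlr, the prolactin receptor, was of interest because prolactin is the hormone of lactation. It was at 670, 710, 905, 1368 and 764 CPM in the NP mice, at 867, 880, 1669 and 781 CPM for control RE, and at 684, 1047, 670 and 970 CPM for stress RE. The highest of all was control RE 87, and the groups overlapped. The log2 fold change was 0.28 for control RE minus NP (95% interval -0.24 to 0.80), -0.33 for stress RE minus control RE (-0.88 to 0.22) and -0.05 for stress RE minus NP (-0.57 to 0.47). The first of these was -0.02 and the second -0.01 without control RE 87. They were 0.51 and -0.63 without members with 3 UMIs of another class, a setting that also dropped control RE 88 from the fit. Without control RE 88 alone they were 0.39 and -0.43. Of the other receptors, Nr3c1, which encodes the glucocorticoid receptor, had -0.03 (-0.53 to 0.47) for stress RE minus control RE, and its target Sgk1 had 0.07 (-0.27 to 0.41). Nr3c1 was at -0.21 without control RE 88 and -0.31 without members with 3 UMIs of another class, and Sgk1 at 0.19 without control RE 87. Of 12 receptor genes (Htr2c left out) and 6 glucocorticoid-responsive genes tested, 0 passed and none had an unadjusted p under 0.05 in any comparison of the fit with all members. Without members with 3 UMIs of another class, Prlr had an unadjusted p of 0.0350 for stress RE minus control RE (edgeR). It did not pass adjustment there.

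The smallest p in the whole fit belonged to Slit2, which encodes a secreted guidance cue (chromosome 5, GRCm38, 47983138 to 48307733, plus strand). Its level was 570 CPM in NP 27, 892 in NP 31, 548 in NP 35, 960 in NP 37 and 551 in NP 73. In control RE it was 378 (66), 223 (72), 453 (87) and 219 (88), and in stress RE 417 (43), 393 (75), 436 (77) and 405 (90). All 5 NP mice lay above all 8 mice with reproductive experience in the fit, as they did for 3 of the 7245 genes (0.0414%). The log2 fold change was -1.08 ± 0.22 (SE) for control RE minus NP (unadjusted p = 0.000149 from the edgeR fit over all genes) and -0.75 ± 0.21 for stress RE minus NP (unadjusted p = 0.00275 from that edgeR fit), and neither passed adjustment (adjusted p = 1.00 for both). Without a filter on low counts the control RE difference passed (log2 fold change -1.06), and without members with 3 UMIs of another class the stress RE difference was -0.45. Of the 2 mice with too few members for the fit, stress RE 70 went against this order, with 1178 CPM from 51 UMIs in 8 nuclei, and NP 63 had 862 CPM from 18 UMIs in 4 nuclei. Thinned to 1000 UMIs, 36.7 to 45.8% of the members of the 5 NP mice had a UMI of Slit2, and 17.5 to 29.0% of those of the 8 others. The share was 25% in NP 63 and 75% in stress RE 70, against this order.

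**Figure D4:**
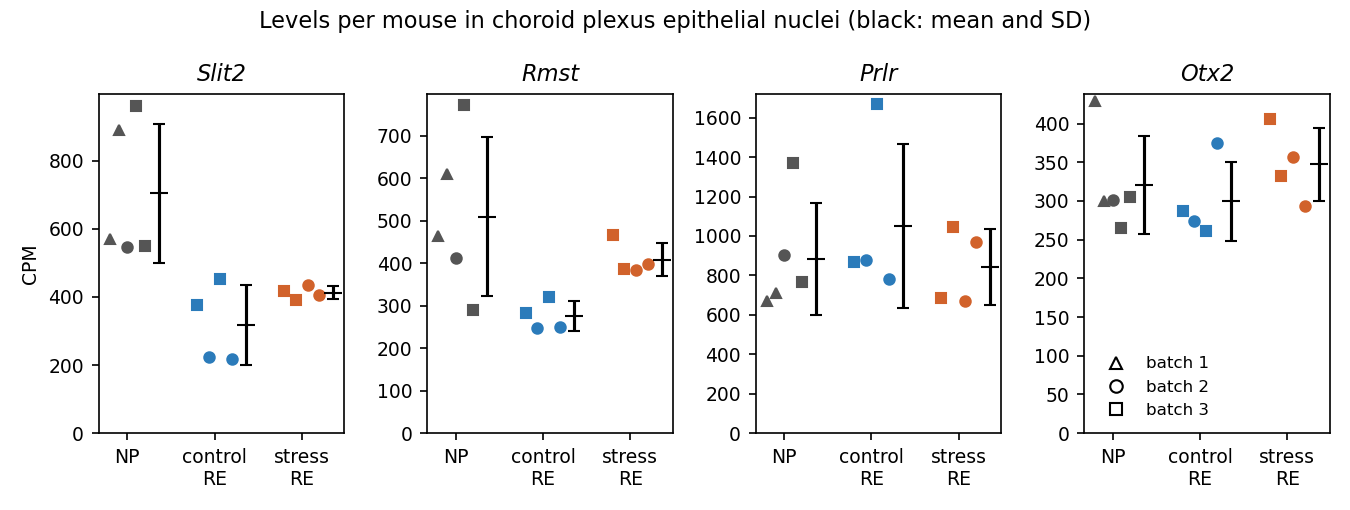
Levels (CPM of member UMIs) of Slit2, Rmst, Prlr and Otx2 in the 13 mice with at least 10 members, by group, with marker shapes for the batch and the mean and SD in black. Slit2 is at 548 CPM or more in every NP mouse and at 453 CPM or less in every other mouse plotted, while the groups overlap for Rmst, Prlr and Otx2, and no gene passed adjustment.

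Next to Slit2, the lower genes of control RE minus NP by smallest p were Zfp36l1, an RNA-binding protein, Sox6, a transcription factor, and the non-coding RNAs Gm29478 and Rmst. Their log2 fold changes were -1.02 ± 0.25, -1.90 ± 0.49, -1.32 ± 0.35 and -0.83 ± 0.22 (SE). Without members with 3 UMIs of another class Sox6 was at -0.57 and Rmst at -0.51. Sox6 is also a marker of oligodendrocyte precursors, whose UMIs were not among those counted. The 4 markers of that list summed to 95.3 to 287 CPM (NP), 52.1 to 97.1 CPM (control RE) and 78.5 to 193 CPM (stress RE) in members. Sox6 itself is 1 of these 4 and made up 82.9 CPM of their mean of 126 CPM. The sum is therefore not separate from the Sox6 difference. Rmst ran from 289 to 772 CPM over the NP mice, from 247 to 321 CPM over control RE and from 383 CPM upwards over stress RE, where it overlapped NP. Sox6 ran from 54.5 to 243 CPM over NP, from 21.3 to 48.5 CPM over control RE and from 43.2 to 108 CPM over stress RE. Stress RE 70, outside the fit with 8 nuclei, had 970 CPM of Rmst (42 UMIs) and 346 CPM of Sox6 (15 UMIs). Both lay above every NP mouse of the fit. NP 63, outside it with 4 nuclei, had 766 and 335 CPM (16 and 7 UMIs). Over the 757 members above, with the mean of each mouse removed, Slit2 correlated with Rmst at 0.37, with Gm29478 at 0.29, with Mir100hg at 0.26, with Sox6 at 0.23 and with Zic4 at 0.16, and against Mef2c, a transcription factor, at -0.24. With the summed ependymal markers the values were 0.05 for Slit2, 0.11 for Rmst and 0.08 for Sox6, and Rmst and Sox6 were themselves high in ependymal nuclei (Sox6 at 1235 CPM, 82.9 CPM in members). The ependymal list summed to 294 CPM in members, most of it Cfap54 and Foxj1. These correlations therefore cannot tell ependymal RNA from RNA of the epithelium itself. The set of genes that went with Slit2 was noticed after the values had been seen.

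The higher genes of control RE minus NP by smallest p were Usp15, Fbxl7, Sptb, Ccbe1 and Tex10, with log2 fold changes of 0.57 to 1.23. For stress RE minus control RE they were Rps24, Pfdn5, Coq10b, Vmp1 and Ctsb (0.54 to 1.74), and the lower ones Adamts17, Ccbe1, Schip1, Bicd2 and Slit1 (-1.96 to -0.61). Ccbe1, a secreted factor of lymphatic growth, was at 338 ± 77.6 CPM for NP (SD, n = 5), 503 ± 78.9 CPM for control RE (n = 4) and 332 ± 16.3 CPM for stress RE (n = 4). The lowest control RE mouse had 438 CPM and the highest of the others 436 CPM, and control RE lay above all other mice for 9 of the 7245 genes (0.124%). Schip1 was at 914 CPM in control RE 72 and 232 to 313 CPM in the other control RE mice, and its log2 fold change of -1.16 was -0.45 without that mouse. Slit1 was at 85.6 and 83.3 CPM in control RE 72 and 88 (25 and 8 UMIs), both of batch 2. It was at 26.6 and 16.2 CPM in control RE 66 and 87, and at 7.85 to 19.6 CPM in stress RE. Adamts17 was at 78.7 and 83.3 CPM in control RE 72 and 88 (23 and 8 UMIs). It was at 28.4 and 32.4 CPM in control RE 66 and 87, and at 7.79 to 19.6 CPM in stress RE. Adamts17, Schip1 and Slit1 were lower in members (30.8, 302 and 30.2 CPM) than in all other nuclei (190, 1277 and 252 CPM). Astrocyte markers in members summed to 81.6 to 812 CPM (control RE) and 89.2 to 263 CPM (stress RE), and GABAergic neuron markers to 156 to 719 CPM and 62.8 to 266 CPM, and their part in these differences was tested only by the limits above, which count no GABAergic gene. For stress RE minus NP, Nop58, Pgap2, Fbxl7, Gm45847 and Adss were the higher genes (0.70 to 0.92, with Adss at 0.46 without members with 3 UMIs of another class), and Fam129b, Tex2, Slit2, Pex14 and Atp6v0d1 the lower ones (-0.83 to -0.60). The smallest adjusted p in the 3 comparisons of the edgeR fit was 1.00.

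Among 17 secreted factors tested (Ttr left out) the median log2 fold change was -0.17 for control RE minus NP and 0.21 for stress RE minus control RE, with 0 genes at an unadjusted p under 0.05 in each. The 10 mitochondrial genes tested had a median of 0.55 for stress RE minus control RE and 0.49 for stress RE minus NP, again with 0 under that value. The highest mitochondrial share of the 13 mice was that of stress RE 75, and without it the difference in this share was -0.0413 and -0.0354 percentage points for these comparisons, against 0.0704 and 0.0763 with it. Ion and water transport (22 tested) had medians of -0.13, 0.11 and 0.01, with Slc4a7, a sodium bicarbonate cotransporter, under it for control RE minus NP (log2 fold change -0.57) and stress RE minus control RE (0.64). Of 11 clock genes, Npas2 (log2 fold change 0.53, control RE minus NP), Per2 (0.61, stress RE minus control RE) and Clock (0.34, stress RE minus NP) were the members under 0.05, or 1 of 11 in each comparison, where the share of all genes was 3.27%, 2.83% and 2.18%. Vcam1 and Ifi27 of the 6 immune genes had 0.61 and -0.72 for control RE minus NP. Of the 3 forebrain position genes tested, Zic4 had -1.01 for control RE minus NP, and Six3 had -0.81 and -0.86 for stress RE against control RE and NP. Zic4 was at 123 CPM in NP 27 and 161 CPM in NP 31, both of batch 1. It was at 67.7 to 71.7 CPM in the other NP mice of the fit and 39.0 to 61.6 CPM in control RE. Cell junctions (13 tested), carriers (19), motile cilia (9), monoamine handling (3) and immediate early and heat shock genes (1) had 0 members at an unadjusted p under 0.05 in every comparison, and no hindbrain gene could be tested. None of the members named in this paragraph passed adjustment.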

How the data were processed

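Single-nucleus RNA-seq libraries (10x Genomics) were made from the dHF of 15 mice. The authors deposited UMI counts per gene and barcode, filtered to called nuclei, from Cell Ranger (version 7.1.0 per the labels, 7.0.0 per the file headers) with the mm10 reference (GRCm38), not corrected for free RNA or doublets. Groups and batches were read from the labels, and the members and gene lists were chosen with earlier results of these data known. Libraries held 40602582 to 96211264 UMIs in 5789 to 12738 barcodes. No member barcode was a member in more than 1 library. No doublet caller was run. Instead, members with 3 or 10 UMIs of another class, or over 3 times the median UMIs, were left out as alternatives. UMI counts were summed per mouse and tested with edgeR 4.0.16 in R 4.3.3 (filterByExpr, TMM, quasi-likelihood test, 3 groups in a single fit, no covariates), with DESeq2 1.42.0 as an alternative, after tests on simulated data. Shares and medians were compared with exact permutation tests in scipy 1.17.1, and no p is given for relations with Ttr, on which members were chosen. The text names Ttr, Htr2c, Otx2 and Kl, the leading 20 genes by CPM and by ratio, 5 genes a direction by smallest p in each comparison, and the 3 highest genes of each list, except that some genes are not reported here. Other genes were named after their values were seen. Mice are separate animals. Coordinates are from GENCODE vM21.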

Additional observations from a re-analysis of the deposited data

Results flagged for a closer look

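A gap test on the highest and lowest mouse of each group, over 54 sets of values of the epithelium, picked out 7 values, where chance gives about 1 in 20. The median depth of members was 9590 UMIs in NP 73, against 5781 to 6761 in the other NP mice. The mitochondrial share of member UMIs was 0.484% in NP 27 (0.0883 to 0.187% in the other NP mice) and 0.609% in stress RE 75 (0.118 to 0.196% in the other stress RE mice). Otx2 was at 430 CPM in NP 27, above the 265 to 305 CPM of its group. Prlr was at 1669 CPM in control RE 87, above the 781 to 880 CPM of the other control RE mice. Nop58, a nucleolar protein gene, was at 17.1 CPM in control RE 72 (5 UMIs), below the 29.7 to 31.2 CPM of its group (3 to 17 UMIs). At so few UMIs counting error is large, and Nop58 was among the genes named by smallest p. The level of Ttr in oligodendrocyte nuclei was 70.9 CPM in control RE 66, against 8.96 to 19.5 CPM in the other control RE mice, and this mouse also had the highest share of members of its group (0.880%).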

How the results depend on the processing

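Without a filter on low counts, 13, 38 and 12 genes passed for control RE minus NP, stress RE minus control RE and stress RE minus NP, and 8, 35 and 9 of them were also in the filtered fit, where none passed. Of the genes named by smallest p, Slit2, Sox6 and Gm29478 passed there for control RE minus NP and Rps24, Pfdn5, Adamts17, Schip1 and Slit1 for stress RE minus control RE. The cause was not tested. Without members with 3 UMIs of another class, log2 fold changes shrank over 1.5 times for Sox6 (-0.57) and Rmst (-0.51), for Schip1 (-0.44, and -0.51 at the limit of 10 UMIs), for Adss (0.46) and for Slit2 in stress RE minus NP (-0.45). With equal nuclei per mouse they did so for Fbxl7 in control RE minus NP (0.31), Fam129b (-0.29) and Pex14 (-0.13), and Usp15 (1.00) and Rps24 (2.25) grew. Atp6v0d1 was at -0.48 with a batch term and -0.41 without NP 27, NP 31 and stress RE 75, where Ccbe1 was at 0.37 in control RE minus NP. Under all other settings tried (DESeq2, RLE scaling, a batch term, Ttr left out, at least 20 nuclei a mouse, equal numbers of nuclei, the stricter and the marker rule, both doublet limits, each mouse left out in turn, and NP 27, NP 31 and stress RE 75 left out together) the count was 0 in each comparison. The doublet limit of 10 UMIs and the joint removal of 3 mice were chosen after seeing the data. Share differences turned sign for control RE minus NP within batch 3 (0.0244 percentage points) and for stress RE minus NP under the stricter rule (0.0183), without members with 3 UMIs of another class (0.0118), on the log2 scale (0.150) and within batch 3 (0.260). So did median UMIs for stress RE minus control RE within batch 3 (-1188) and stress RE minus NP within batch 2 (865.5), and the mitochondrial share for stress RE minus control RE within batch 2 (-0.0978). With each mouse left out in turn, share differences ran from -0.365 to -0.0535, 0.0729 to 0.316 and -0.177 to 0.121 percentage points in the 3 comparisons, median UMIs from -1445 to -111, -267 to 831.5 and -1036 to 52.9, and the mitochondrial share from -0.0216 to 0.0773, -0.0413 to 0.123 and -0.0354 to 0.148, and 0 tests passed. The mitochondrial share without stress RE 75 was -0.0413 and -0.0354 for its 2 comparisons. No paired analysis was possible because the replicate numbers are mouse numbers, none of them shared between groups. Batch was used as a term and for within-batch values instead. For Prlr, leaving out members with 3 UMIs of another class gave 0.51 for control RE minus NP and -0.63 for stress RE minus control RE. The 16 to 139 members per mouse limit what can be seen at low levels.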

Other observations

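Cx3cr1, which encodes the fractalkine receptor of microglia, was at 159 ± 52.5 CPM (SD, n = 13) in members and 22.6 CPM in all other nuclei. Of the other microglial markers, Csf1r was at 6.09 CPM, C1qa at 2.11 CPM and Ptprc at 1.27 CPM in members. The values of P2ry12 and Mrc1 are not given, and all 6 markers of the list summed to 193 CPM. Cx3cr1 ran from 89.0 CPM in control RE 87 to 265 CPM in NP 37. It was noticed after its values had been seen, and no test was made.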
